A study of Homo sapiens with 25 samples.

Results

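The genes described here are 45 genes of the DNA replication machinery, out of 60179 gene identifiers in the expression table. They form a list of symbols from licensing to the restoration of chromatin behind the fork, chosen with earlier results of these data known. All 45 had a mean of at least 1 TPM over the 9 RNA libraries, as did 13753 genes in all, and these were the genes tested. TPM is reads divided by transcript length, scaled to the same total in every library. The cells were HEC-1A, an established human epithelial line from an endometrial adenocarcinoma, with the genotype given as WT. Cells were exposed to 20 µM THC, a cannabinoid, for 24 h or for 72 h, or were left untreated, with 3 RNA libraries and 3 ATAC libraries in each of these groups. Chromatin carrying trimethylated lysine 4 of histone H3 (H3K4me3, a mark of active promoters) was profiled by CUT&RUN in 3 THC and 3 untreated libraries, and the labels give no exposure time for it. The labels name no vehicle and no time in culture for the untreated cells, so exposure to THC, its length and time in culture cannot be told apart. All groups were of 1 cell line.

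Replication starts at origins that are licensed before S phase, when the origin recognition complex, CDC6 and CDT1 load the MCM2 to MCM7 ring onto DNA. Geminin, encoded by GMNN, binds CDT1 and prevents a further round of loading. At the start of S phase CDC45 and the GINS complex join the ring to form the active helicase, polymerase alpha with primase lays down primers, and polymerases epsilon and delta extend them with the PCNA sliding clamp, which replication factor C loads. FEN1 and ligase 1 mature the Okazaki fragments, RPA covers single-stranded DNA, ribonucleotide reductase, TYMS and TK1 supply deoxynucleotides, and UHRF1, DNMT1 and chromatin assembly factor 1 restore DNA methylation and nucleosomes. Many of these genes are known targets of the E2F transcription factors, and their messenger RNA is high in dividing cells.

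Almost the whole list fell with THC at both times. After 24 h 44 of the 45 genes were lower than in untreated cells and 0 were higher, with CDT1 the gene not called (limma, Benjamini-Hochberg adjusted p under 0.05 over all tested genes; 0 were also higher at an unadjusted p under 0.05). Of all 13753 tested genes, 51.7% were called lower and 25% higher in that comparison, so a lower call was itself common. The median log2 fold change, taken throughout on log2(TPM + 1), was -1.16 over the 45 genes and -0.23 over all tested genes, and 27 of the 45 had a called log2 fold change of -1 or below, against 10.6% of all tested genes.

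After 72 h 43 of the 45 genes were lower than in untreated cells and 0 were higher, the 2 genes not called being CDT1 and RPA2 (limma; again 0 were higher at an unadjusted p under 0.05). In this comparison 33% of all tested genes were lower and 40.1% higher. The median was -0.81 over the 45 genes and 0.06 over all tested genes, and 14 of the 45 were at -1 or below, against 5.56% of all tested genes. The libraries of the THC and untreated groups did not overlap in 44 genes at 24 h and in 43 at 72 h, all of them lower. Over all tested genes, 52.8% were lower without overlap and 25.8% higher at 24 h, and 35% were lower and 41.6% higher at 72 h. Summed over the list, the level was 2179, 2165 and 2156 TPM in the 24 h libraries, 2857, 2720.5 and 2694 TPM in the 72 h libraries and 4844, 5056 and 4833 TPM in the untreated libraries. The 3 groups were therefore separate, with the 24 h libraries lowest. In a bulk sample, fewer cells in S phase and less RNA per cell cannot be told apart.

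**Figure D1:**
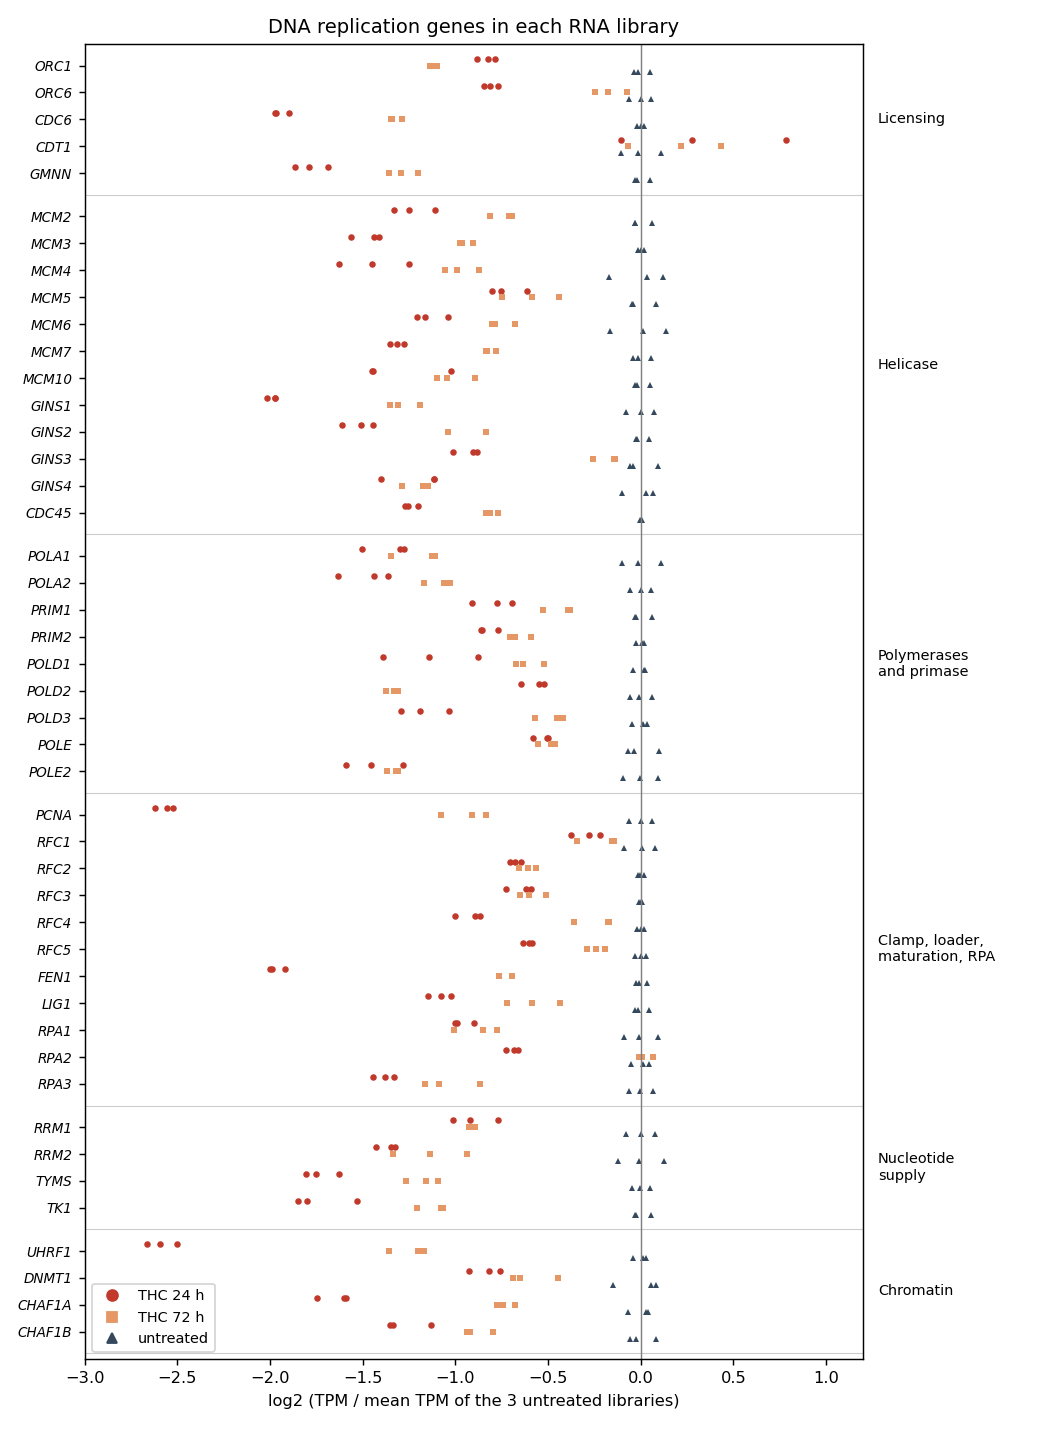
Each of the 45 replication genes is a row, grouped by role, and each symbol is 1 RNA library, placed by log2 of its TPM over the mean TPM of the 3 untreated libraries (circles THC 24 h, squares THC 72 h, triangles untreated, 3 each). Most circles lie furthest left, CDT1 spreads across the line at 0, and POLD2 and ORC1 have their squares left of their circles.

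TPM keeps no read depth, so none can be given for the RNA libraries. They are labelled as biological replicates, without a word on whether each had its own culture, and the spread that the p-values rest on may be technical. All 6 epithelial markers were high, with a summed level of 4425 to 4489 TPM at 24 h, 3191 to 3438 TPM at 72 h and 2550.3 to 2666 TPM in untreated cells. The 5 immune markers summed to at most 0.16 TPM and the 4 endothelial markers to at most 0.357 TPM in any library, and of 5 stromal markers only COL1A1 passed the filter. Transcripts encoded by the mitochondrial genome took a smaller part of the TPM total with THC, at 33014 to 34121 TPM at 24 h and 11635 to 13663 TPM at 72 h against 70021 to 76909 TPM in untreated cells. Because TPM has a fixed total, the levels of all genes were also compared after centring each library on its median, which placed all genes at medians of -0.01 at 24 h and -0.03 at 72 h. The calls of lower level then numbered 43 at 24 h, RFC1 being lost, and 43 at 72 h, with medians over the list of -0.94 and -0.90. Over all tested genes, higher calls made up 32.6% of the calls at 24 h as deposited and 49.1% after centring, and 54.8% and 47.3% at 72 h.

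The promoters are shown for 6 of the genes to which the results below return, because the E2F-type letters that they hold or lack can be read directly. PCNA, UHRF1 and CDC6 had large falls, FEN1 had a large fall without such letters, CDT1 was not called, and POLD2 fell further at 72 h. Each run is the 300 bases from 250 before to 50 after a transcription start, 5′ to 3′ on the strand of the gene, from RefSeq on GRCh38.p14. Capitals mark the letters TTTCCCGC, TTTCGCGC, TTTGCCGC or TTTGGCGC on either strand. PCNA lies on the minus strand at chr20:5126573-5126872, UHRF1 on the plus strand at chr19:4909251-4909550, CDC6 on the plus strand at chr17:40287629-40287928, CDT1 on the plus strand at chr16:88803539-88803838, FEN1 on the plus strand at chr11:61792661-61792960 and POLD2 on the minus strand at chr7:44123499-44123798. PCNA, with 2 listed starts, and UHRF1, with 3, are shown at the first that RefSeq lists.
PCNA: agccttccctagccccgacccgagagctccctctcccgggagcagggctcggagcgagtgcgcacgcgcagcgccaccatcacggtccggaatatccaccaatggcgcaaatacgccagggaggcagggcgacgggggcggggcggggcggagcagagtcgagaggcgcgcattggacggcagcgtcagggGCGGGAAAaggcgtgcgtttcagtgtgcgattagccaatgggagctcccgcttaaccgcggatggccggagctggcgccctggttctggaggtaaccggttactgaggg
UHRF1: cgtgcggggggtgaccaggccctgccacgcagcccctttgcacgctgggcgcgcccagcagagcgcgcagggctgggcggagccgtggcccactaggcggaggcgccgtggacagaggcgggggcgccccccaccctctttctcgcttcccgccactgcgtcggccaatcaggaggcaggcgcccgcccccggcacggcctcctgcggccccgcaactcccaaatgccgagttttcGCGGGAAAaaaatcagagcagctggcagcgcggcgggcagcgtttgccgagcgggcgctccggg
CDC6: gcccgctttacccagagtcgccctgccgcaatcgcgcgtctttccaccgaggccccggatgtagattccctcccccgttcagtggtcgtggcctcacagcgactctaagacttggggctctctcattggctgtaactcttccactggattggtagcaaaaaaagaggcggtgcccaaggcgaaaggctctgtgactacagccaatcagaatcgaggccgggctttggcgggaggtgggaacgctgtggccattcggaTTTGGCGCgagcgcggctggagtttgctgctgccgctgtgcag
CDT1: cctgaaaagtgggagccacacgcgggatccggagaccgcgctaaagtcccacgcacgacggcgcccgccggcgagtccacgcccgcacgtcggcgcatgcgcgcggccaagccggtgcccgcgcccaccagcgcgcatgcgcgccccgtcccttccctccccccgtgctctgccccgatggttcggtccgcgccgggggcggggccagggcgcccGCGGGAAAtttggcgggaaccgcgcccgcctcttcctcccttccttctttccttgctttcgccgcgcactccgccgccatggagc
FEN1: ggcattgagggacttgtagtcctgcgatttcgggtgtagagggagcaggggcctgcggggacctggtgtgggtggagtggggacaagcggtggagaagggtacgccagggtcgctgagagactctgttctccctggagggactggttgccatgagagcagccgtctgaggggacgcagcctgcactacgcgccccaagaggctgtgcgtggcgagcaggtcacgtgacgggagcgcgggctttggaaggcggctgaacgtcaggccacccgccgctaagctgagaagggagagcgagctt
POLD2: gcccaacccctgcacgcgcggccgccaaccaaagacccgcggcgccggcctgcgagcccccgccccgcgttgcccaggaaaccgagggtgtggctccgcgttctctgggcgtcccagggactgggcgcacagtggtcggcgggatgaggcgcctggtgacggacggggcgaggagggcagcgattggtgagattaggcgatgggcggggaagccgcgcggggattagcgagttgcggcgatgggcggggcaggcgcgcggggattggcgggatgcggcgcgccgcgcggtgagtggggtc

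A promoter was listed for 39 of the 45 genes, and not for MCM4, MCM5, GINS4, POLD3, RPA2 and RPA3. Those 39 genes had 51 listed promoters, of which 21, from 20 genes, held the E2F-type letters. That was 41.18% of their promoters, against 5.09% of 14606 promoters of tested genes and 3.31% of all 35116 promoters in the table. Read on the plus strand alone the share was 17.65%. The letters CCAAT, bound by the factor NF-Y, were in 58.82% of the promoters of the list and in 35.23% of those of tested genes, and the GC box GGGCGG, bound by SP1, in 74.51% and 66.46%. TTTGAA, the letters of the cell cycle homology region found in promoters of mitotic genes, were in 1.96% of the promoters of the list, which was the promoter of RRM1, and in 10.14% of those of tested genes. All motifs were searched on both strands, and a match is a description of letters and not of binding.

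In PCNA the E2F-type letters began 59 bases before the start, in CDT1 35 bases before it, in UHRF1 14 bases before the start shown, and in CDC6 at base 8 after it. MCM2 and MCM6 held overlapping copies, since TTTCGCGC or TTTGGCGC followed by GAAA also reads as a copy on the other strand. Genes with the letters had a median log2 fold change of -1.34 (20 genes) and those without them -0.91 (19 genes) at 24 h. At 72 h the medians were -0.94 and -0.73. The ranges overlapped widely at 24 h, from -2.54 to 0.31 with the letters and from -1.94 to -0.29 without them. Only the exact letters counted, so genes that hold only the near match TTTGGCGG were placed in the group without them. CDC45 and MCM10 hold it on the strand of the gene, and CHAF1A and RFC1 on the other strand. The medians and ranges are values of a list whose members share libraries, and no test was made of them.

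**Figure D2:**
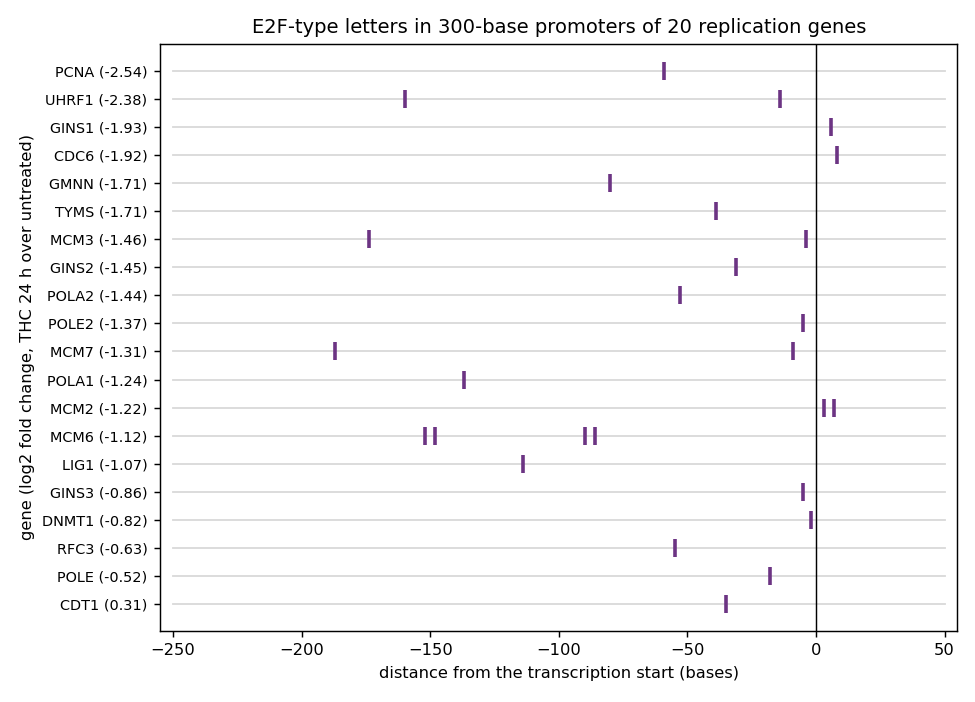
The first base of each E2F-type match is drawn by its distance from the transcription start (bases, negative before it) for the 20 replication genes that hold one, ordered by the log2 fold change at 24 h given beside each name. Most matches lie within 100 bases of the start, and CDT1, the gene at 0.31, has one, as have PCNA and UHRF1 with large falls. Genes without an exact match are not drawn, and some of them, such as FEN1, TK1 and CHAF1A, also had large falls. Of these CHAF1A holds the near match TTTGGCGG.

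Of the 5 licensing genes 4 were lower at each time, with CDT1 as the exception. Beside the counts of this and the following role groups, 51.7% of all tested genes were lower at 24 h and 33% at 72 h. CDC6, the ATPase that loads the helicase ring together with CDT1, was at 41.9, 44.3 and 42.1 TPM in the 24 h libraries, 64.7, 67.5 and 65 TPM in the 72 h libraries and 163, 165 and 167 TPM in the untreated libraries. The 3 groups were far apart, with log2 fold changes against untreated cells of -1.92 ± 0.04 (SE) at 24 h and -1.31 ± 0.04 at 72 h (limma adjusted p = 2.21e-10 and 1.74e-09). GMNN, the inhibitor of CDT1, was at 13.5, 15.3 and 14.2 TPM in the 24 h libraries, 21.4, 20.0 and 19.2 TPM in the 72 h libraries and 48, 48.5 and 50.9 TPM in the untreated libraries. It too fell at both times without overlap of any groups, with log2 fold changes of -1.71 ± 0.06 and -1.24 ± 0.06.

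CDT1 did not share the fall of the rest of the list, at 52.2, 28.2 and 36.8 TPM in the 24 h libraries, 41, 28.9 and 35.3 TPM in the 72 h libraries and 30.1, 32.8 and 28.2 TPM in the untreated libraries. The 24 h libraries spread widely, with values both above and below the untreated mean. The log2 fold change was 0.31 ± 0.19 at 24 h (limma adjusted p = 0.16) and 0.19 ± 0.19 at 72 h (limma adjusted p = 0.384), and neither was called. Whether CDT1 was called higher at 24 h depended on 1 library and on the scaling. Without THC 24 h replicate 2 CDT1 was called higher, at 0.52 (limma adjusted p = 0.0165), and after centring it was called higher at 0.53 (limma adjusted p = 0.0306).

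ORC1, the ATPase subunit of the origin recognition complex, was one of 2 members that were lower at 72 h than at 24 h. Its level was 16.9, 17.6 and 18.1 TPM in the 24 h libraries, 14.5, 14.2 and 14.2 TPM in the 72 h libraries and 30.4, 32.2 and 30.8 TPM in the untreated libraries, with the 72 h libraries below all others. The log2 fold change was -0.80 ± 0.05 at 24 h and -1.07 ± 0.05 at 72 h. ORC6, the smallest subunit, was lower at 24 h (-0.78) and close to untreated cells at 72 h (-0.16 ± 0.06, limma adjusted p = 0.0247), a call that was lost when single untreated or 72 h libraries were left out.

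All 12 genes of the replicative helicase fell at both times, with medians of -1.24 at 24 h and -0.87 at 72 h. At 24 h 10 of them were at -1 or below, against 10.6% of all tested genes. GINS1, a subunit of the GINS complex that bridges CDC45 and the MCM ring, changed most, at 17.8, 18.4 and 18.4 TPM in the 24 h libraries, 28.3, 31.6 and 29.1 TPM in the 72 h libraries and 68.5, 75.9 and 72.4 TPM in the untreated libraries. No library of 1 group reached another, and the log2 fold changes were -1.93 ± 0.06 and -1.26 ± 0.06. GINS2, its partner, was at 12.9, 12 and 13.5 TPM in the 24 h libraries, 20.6, 17.9 and 17.9 TPM in the 72 h libraries and 36.1, 37.8 and 36.2 TPM in the untreated libraries. Its falls were -1.45 ± 0.07 and -0.94 ± 0.07, again with 3 separate groups. GINS3 was at -0.86 at 24 h and closer to untreated cells at 72 h, at -0.17 ± 0.06, where leaving out 1 library could end the call.

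The 6 subunits of the MCM ring fell together. MCM3 was at 50.6, 55.2 and 56.1 TPM in the 24 h libraries, 79.7, 76.6 and 76.1 TPM in the 72 h libraries and 149.6, 151 and 148 TPM in the untreated libraries, a log2 fold change of -1.46 ± 0.05 at 24 h and -0.94 ± 0.05 at 72 h. MCM2 was at 80.2, 68.9 and 72.8 TPM in the 24 h libraries, 107, 98.8 and 106 TPM in the 72 h libraries and 169.6, 181 and 169.8 TPM in the untreated libraries, a change of -1.22 ± 0.06 and -0.73 ± 0.06. In both genes the 72 h libraries lay between the other groups without overlap. The sum of the 6 subunits was 452.7 to 482 TPM at 24 h, 607.6 to 646.7 TPM at 72 h and 1067 to 1162 TPM in untreated cells. Within every library MCM7 was the highest of the 6, and the lowest was MCM6 except in 24 h replicates 1 and 2, where it was MCM3. The highest level was 2.15 to 2.34 times the lowest at 24 h, 2.28 to 2.4 times at 72 h and 2.32 to 2.67 times in untreated cells. MCM5 had the smallest fall of the ring, at -0.72 and -0.59, and the largest at 24 h was that of MCM3. The other helicase genes at 24 h and 72 h were MCM4 at -1.43 and -0.96, MCM6 at -1.12 and -0.74, and MCM7 at -1.31 and -0.81. MCM10, which helps to activate the loaded helicase, was at -1.25 and -0.97, GINS4 at -1.17 and -1.16, and CDC45 at -1.21 and -0.79.

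All 9 polymerase and primase genes were lower at both times, with medians of -1.11 and -0.64. POLD2, the subunit that holds the delta polymerase together, stood apart in its course. Its level was 243, 227 and 248 TPM in the 24 h libraries, 137, 143 and 141 TPM in the 72 h libraries and 353, 341 and 371 TPM in the untreated libraries. All 72 h libraries were below all 24 h libraries, with log2 fold changes of -0.57 ± 0.05 at 24 h and -1.33 ± 0.05 at 72 h. It was the most abundant of the 45 transcripts at 24 h by TPM, with a mean of 239 TPM. The catalytic subunit POLD1 had its larger fall at 24 h, at -1.11 against -0.60 at 72 h, and so did the subunit POLD3, at -1.11 and -0.46.

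POLA2, the regulatory subunit of polymerase alpha, was at 23.8, 27.2 and 28.6 TPM in the 24 h libraries, 32.7, 35.3 and 36.1 TPM in the 72 h libraries and 70.7, 76.5 and 73.8 TPM in the untreated libraries. Its log2 fold changes were -1.44 ± 0.07 and -1.07 ± 0.07, and its 72 h libraries lay between the other groups. POLE2, a subunit of polymerase epsilon, was at 12.5, 14.1 and 11.4 TPM in the 24 h libraries, 13.2, 13.8 and 13.7 TPM in the 72 h libraries and 32, 34.1 and 36.5 TPM in the untreated libraries. Its 24 h and 72 h libraries overlapped, both far below the untreated ones, with log2 fold changes of -1.37 ± 0.08 and -1.27 ± 0.08. POLE, the catalytic subunit of the same enzyme, fell less, at -0.52 and -0.49. The catalytic subunit POLA1 was at -1.24 and -1.09, and the primase genes PRIM1 at -0.78 and -0.43 and PRIM2 at -0.80 and -0.64.

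Changes ranged widely among the clamp, its loader, the Okazaki fragment enzymes and RPA, where all 11 genes were lower at 24 h and 10 at 72 h. PCNA was at 43.6, 45.6 and 46.6 TPM in the 24 h libraries, 150.2, 142 and 127 TPM in the 72 h libraries and 279.7, 268 and 257 TPM in the untreated libraries. It ranked 28th from the bottom of all 13753 log2 fold changes at 24 h, at -2.54 ± 0.06 (limma adjusted p = 4.56e-10), and stood at -0.94 ± 0.06 at 72 h. FEN1, the nuclease that trims the flap of an Okazaki fragment, was at 32.5, 34.1 and 32.3 TPM in the 24 h libraries, 79.9, 76.3 and 76 TPM in the 72 h libraries and 128, 133 and 127 TPM in the untreated libraries. Its log2 fold changes were -1.94 ± 0.04 and -0.73 ± 0.04, and as for PCNA no library of 1 group overlapped another. RefSeq lists PCNA-AS1, an antisense gene with a mean under 1 TPM, over PCNA. Whether the authors quantified by strand is not stated in the labels, and reads of overlapping genes cannot then be told apart. This limit also touches ORC1, GINS2, MCM7, PRIM2, RFC5, RPA3, CHAF1A and TYMS. RefSeq places each of them over a gene with a mean of at least 1 TPM.

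RPA3, the smallest subunit of the single-strand binding complex, was at 46.3, 50.2 and 48.4 TPM in the 24 h libraries, 59.4, 69.1 and 56.3 TPM in the 72 h libraries and 126, 132 and 121 TPM in the untreated libraries. It remained far below untreated cells at both times, at -1.37 ± 0.07 and -1.03 ± 0.07. RPA2, the subunit that checkpoint kinases phosphorylate, was instead at 48.4, 50.5 and 49.7 TPM in the 24 h libraries, 83.7, 79.3 and 80.3 TPM in the 72 h libraries and 77.1, 80.5 and 82.4 TPM in the untreated libraries. Its 24 h libraries were lower than all others, at -0.68 ± 0.04, whereas its 72 h libraries overlapped the untreated ones, at 0.02 ± 0.04 (limma adjusted p = 0.695). RPA1, the large subunit, was at -0.95 and -0.87, so at 72 h RPA2 was near its untreated level and the other subunits were not.

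All 5 loader subunits were called lower at both times. RFC1, the large subunit, had the smallest called fall of the list at 24 h, at -0.29 ± 0.07, and was at -0.21 ± 0.07 at 72 h. Its call at 72 h was lost without untreated replicate 1 and without THC 72 h replicate 3. After centring it was not called at 24 h, at -0.07 (limma adjusted p = 0.368). RFC2 was at -0.67 and -0.60, RFC3 at -0.63 and -0.58, RFC4 at -0.91 and -0.23, and RFC5 at -0.60 and -0.24. LIG1, the ligase that seals Okazaki fragments, was at -1.07 and -0.57.

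**Figure D3:**
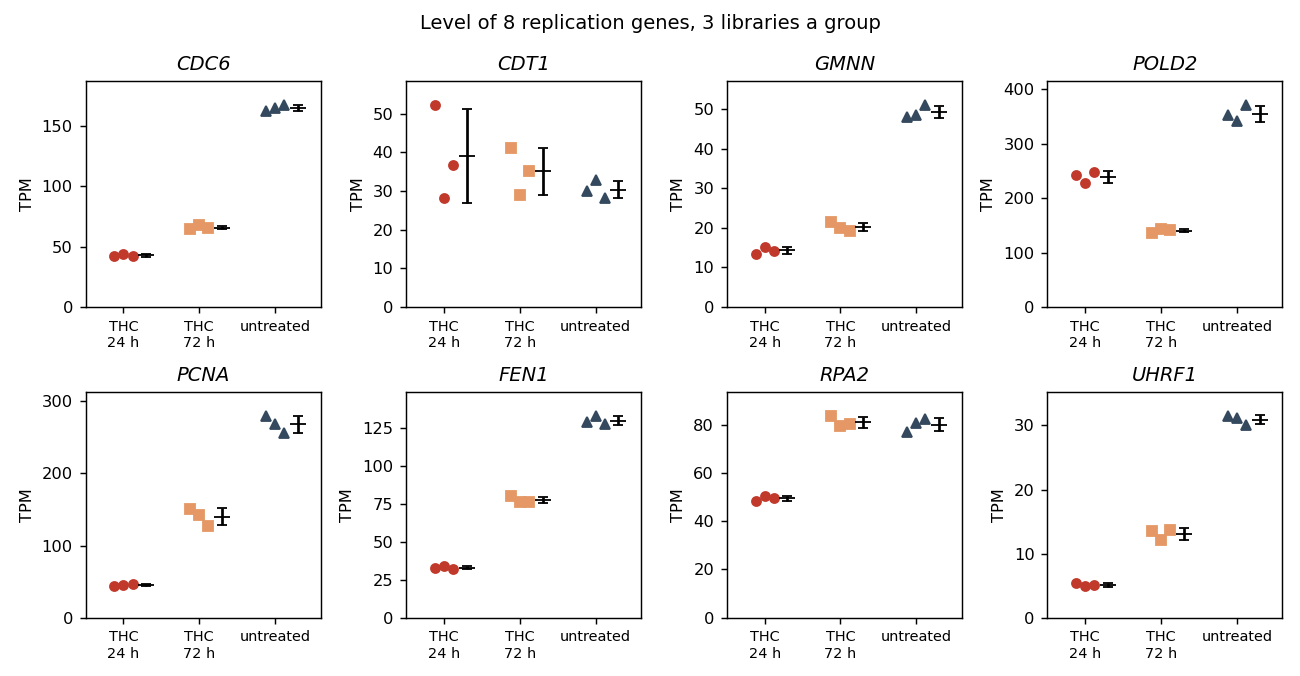
TPM of 8 replication genes is shown per library (3 symbols a group, in the order THC 24 h, THC 72 h, untreated), with the group mean and SD as a bar beside them. PCNA, FEN1, UHRF1, CDC6 and GMNN have their lowest levels at 24 h, POLD2 at 72 h, RPA2 is back among the untreated values at 72 h, and CDT1 varies most within its 24 h group.

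All 4 genes of nucleotide supply fell at both times, with medians of -1.53 and -1.12. TK1, the thymidine salvage kinase, was at 135, 108 and 112 TPM in the 24 h libraries, 186, 169 and 185 TPM in the 72 h libraries and 383, 405 and 382 TPM in the untreated libraries. TYMS, which makes thymidylate, was at 47.4, 49.2 and 53.8 TPM in the 24 h libraries, 77.8, 74.2 and 69 TPM in the 72 h libraries and 160.5, 172 and 165 TPM in the untreated libraries. Both had 3 separate groups, with log2 fold changes of -1.72 ± 0.08 and -1.11 ± 0.08 for TK1 and -1.71 ± 0.06 and -1.16 ± 0.06 for TYMS. TYMS overlaps ENOSF1 and TYMSOS, both expressed, which the same limit touches. RRM2, the S phase subunit of ribonucleotide reductase, was at 96.6, 90.0 and 95.3 TPM in the 24 h libraries, 126, 110.1 and 95.9 TPM in the 72 h libraries and 241, 264 and 222 TPM in the untreated libraries. Its THC groups overlapped each other and not the untreated group, at -1.35 ± 0.09 and -1.13 ± 0.09. RRM1, the large subunit, was at -0.89 and -0.90. At 72 h it was not called against 24 h on the TPM as deposited (limma adjusted p = 0.868), and it was called lower after centring, at -0.32 (limma adjusted p = 0.000719).

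The 4 genes of chromatin and methylation maintenance were lower at both times, with medians of -1.38 and -0.77. UHRF1, which recognises hemimethylated DNA and brings in DNMT1, was at 5.45, 4.88 and 5.13 TPM in the 24 h libraries, 13.5, 12.1 and 13.7 TPM in the 72 h libraries and 31.5, 31.2 and 30.0 TPM in the untreated libraries. Its 3 groups were separate, with the second largest fall of the list at 24 h, -2.38 ± 0.06, and -1.18 ± 0.06 at 72 h. CHAF1A, the large subunit of chromatin assembly factor 1, was at 20.5, 18.4 and 20.3 TPM in the 24 h libraries, 38.6, 36 and 36.8 TPM in the 72 h libraries and 63.4, 63 and 58.8 TPM in the untreated libraries, and CHAF1B, its partner, at 6.43, 7.51 and 6.52 TPM in the 24 h libraries, 9.48, 8.69 and 8.61 TPM in the 72 h libraries and 16.2, 17.4 and 15.8 TPM in the untreated libraries. Both had their lowest levels at 24 h without overlap, with log2 fold changes of -1.60 ± 0.06 and -0.72 ± 0.06 for CHAF1A and -1.16 ± 0.07 and -0.81 ± 0.07 for CHAF1B. DNMT1, the maintenance methyltransferase, fell less, at -0.82 and -0.59.

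Between the 2 THC times most of the list was higher at 72 h, though most genes were. Against 24 h, 32 of the 45 genes were higher at 72 h, 2 were lower and 11 were not called (limma), while 54.9% of all tested genes were higher and 17.8% lower. The libraries did not overlap in 30 genes that were higher and 2 that were lower, against 55.4% and 18.5% of all tested genes. The median log2 fold change was 0.38 over the list and 0.26 over all tested genes. After centring each library on its median the list split into 20 higher and 11 lower with a median of 0.07, and over all genes the share of higher calls was 44.5% where it was 75.5% as deposited. Under both scalings PCNA (1.60 as deposited and 1.30 centred), FEN1 (1.21 and 0.90) and UHRF1 (1.19 and 0.89) were called higher and lay furthest above the rest. CHAF1A, RPA2, GINS3, RFC4, GINS1, POLD3, ORC6 and CDC6 followed, at 0.88 to 0.61 as deposited, and were also called higher after centring. POLD2 was lower at 72 h under both, at -0.76 ± 0.05 (limma adjusted p = 3.88e-07) and -1.07, as was ORC1, at -0.27 ± 0.05 (limma adjusted p = 0.000629) and -0.58.

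**Figure D4:**
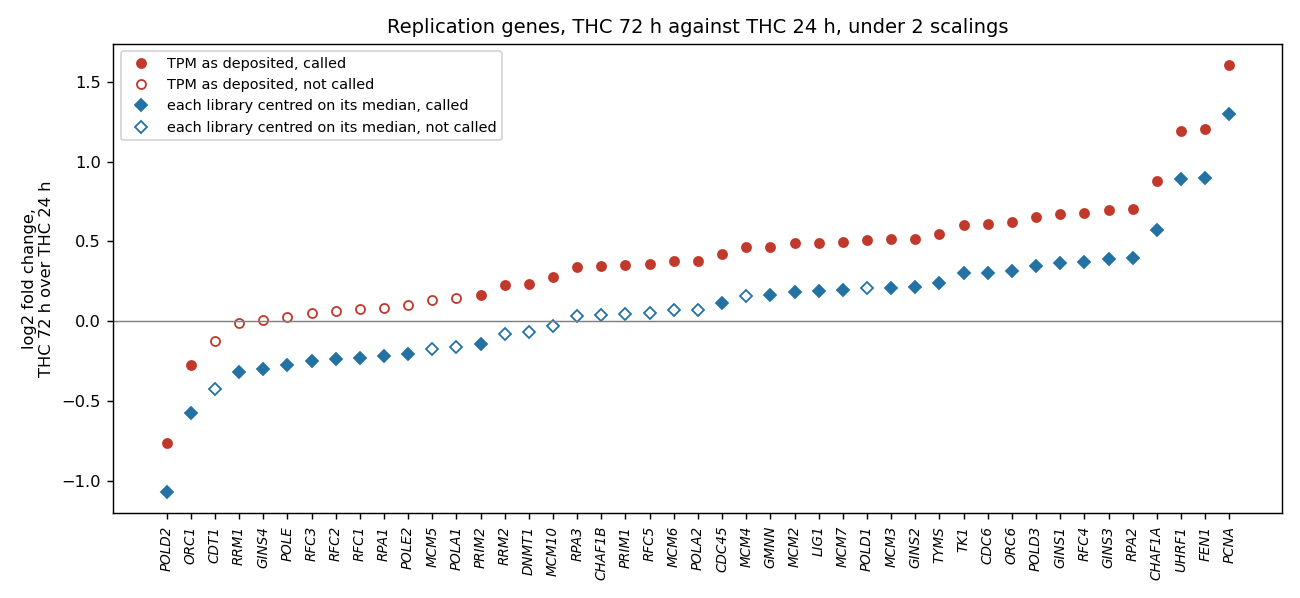
The log2 fold change of THC 72 h over THC 24 h is drawn for each of the 45 replication genes, ordered by the value as deposited (circles) and with the same gene after centring each library on its median (diamonds), filled where limma's adjusted p was under 0.05. PCNA, FEN1 and UHRF1 stand at the high end and POLD2 and ORC1 at the low end under both scalings, while the middle of the list crosses 0.

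Ratios of 2 genes within a library do not depend on how TPM is scaled. CDT1 over GMNN, the licensing factor over its inhibitor, was 3.86, 1.85 and 2.59 in the 24 h libraries, 1.92, 1.45 and 1.84 in the 72 h libraries and 0.626, 0.675 and 0.554 in the untreated libraries. Every THC library was above every untreated one, by 2.10 at 24 h and 1.48 at 72 h on the log2 scale, and the THC times overlapped. PCNA over RFC1, the clamp over the large subunit of its loader, was 0.826, 0.775 and 0.823 at 24 h. It was 2.44, 2.29 and 2.35 at 72 h and 3.86, 3.9 and 3.98 in untreated cells. PCNA was thus below RFC1 in the 24 h libraries alone, which depended on the loader subunit chosen. In each 24 h library PCNA (43.6, 45.6 and 46.6 TPM) was also below RFC2 and RFC4. It was above RFC3 (39.2, 43.1 and 42.3 TPM) and RFC5 (43.1, 44.5 and 44 TPM). The log2 differences of PCNA over RFC1 from untreated cells were -2.27 and -0.73, and 72 h lay 1.55 above 24 h.

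RRM2 over RRM2B, the S phase small subunit of ribonucleotide reductase over the alternative one that p53 induces, was 13, 11.7 and 14.7 at 24 h, 9.41, 10.4 and 8.54 at 72 h and 23.5, 23.1 and 25.2 in untreated cells. The log2 differences from untreated cells were -0.87 and -1.34, and 72 h lay -0.47 from 24 h, so this ratio was lowest at 72 h. In 8 of the 9 comparisons of ratios the groups were separate and the exact permutation test gave 0.1, the smallest p that 3 libraries against 3 allow (two-sided, 0.1125 adjusted over 9). The exception was CDT1 over GMNN between the THC times, at an exact permutation p of 0.2 (adjusted 0.2).

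Genes around the list gave the following counts, where 51.7% of all tested genes were lower and 25% higher at 24 h. At 72 h 33% of all tested genes were lower and 40.1% higher. Of 15 other origin and firing factors, 13 were lower and 0 higher at 24 h (median -0.73), and 9 were lower and 1 higher at 72 h (median -0.29). CDC7, the kinase that fires origins, was at 9.34 ± 1.07, 10.2 ± 0.862 and 27.2 ± 1.14 TPM at 24 h, at 72 h and in untreated cells (SD, n = 3 each), changes of -1.45 and -1.34. TICRR (-1.21), MCM8 (-1.01) and RECQL4 (-0.96) were next at 24 h, and TOPBP1, a checkpoint and firing scaffold, was the gene higher at 72 h (0.38). Of 17 other fork and polymerase genes 16 were lower at 24 h and 13 at 72 h (medians -0.82 and -0.56). CLSPN (-1.61), DSCC1 (-1.55), TOP2A (-1.27) and TIMELESS (-1.11) had the largest falls at 24 h. The exception at 24 h was POLD4, the small accessory subunit of polymerase delta, at 78.4 ± 11.2, 47 ± 2.12 and 44.5 ± 4.56 TPM at 24 h, at 72 h and in untreated cells, a rise of 0.80 at 24 h and a value of 0.08 at 72 h that was not called.

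Other nucleotide and chromatin supply genes were lower at 24 h in 11 of 11 and at 72 h in 9 of 11 (medians -1.33 and -0.88). Over all tested genes 51.7% were lower at 24 h and 33% at 72 h. ASF1B, a histone chaperone, was at 30.6 ± 1.54, 72.5 ± 3.63 and 147 ± 3.05 TPM at 24 h, at 72 h and in untreated cells (-2.23 and -1.01). DUT, which removes dUTP, was at -1.60 and -0.82, and SAMHD1, a deoxynucleotide hydrolase, at -1.50 and -1.04. RRM2B fell at 24 h (-0.44) and was not called at 72 h (0.19).

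Of 13 E2F, partner and pocket protein genes 10 were lower and 2 higher at 24 h, and 9 were lower and 3 higher at 72 h (medians -0.57 and -0.35). Over all tested genes 51.7% were lower and 25% higher at 24 h, and 33% and 40.1% at 72 h. E2F1, an activating member, was at 23.7 ± 1.42, 49.6 ± 2.17 and 55.8 ± 2.23 TPM at 24 h, at 72 h and in untreated cells, changes of -1.20 and -0.17. E2F8 (-2.19 and -0.75), TFDP1, a binding partner of the E2F proteins (-1.87 and -0.96), E2F2 (-1.80 and -0.35) and RBL1 (-1.33 and -0.48) had the largest falls. The genes higher at both times were E2F4 (0.15 and 0.23) and E2F5 (0.26 and 0.21), members best known as partners of the pocket proteins in repression, and E2F6 was higher at 72 h (0.42).

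Polymerases outside the replication fork had calls in both directions, which was common over all tested genes too. Of all tested genes 51.7% were lower and 25% higher at 24 h, and 33% and 40.1% at 72 h. Of 9 tested translesion and repair polymerases 4 were lower and 5 higher at 24 h (median 0.27), and 2 were lower and 4 higher at 72 h (median 0.13). POLH, which copies past ultraviolet lesions, was lower (-1.44 and -0.79) and so was POLQ (-0.95 and -0.41). REV3L, the catalytic subunit of polymerase zeta, was higher at 24 h (0.81) and not called at 72 h (0.08), while POLM was higher at both times (0.59 and 0.74). Of 22 mitosis genes 20 were lower at 24 h and 22 at 72 h (medians -0.96 and -0.83), with KIF11 (-1.87) and KIF20A (-1.72) lowest at 24 h. Summed, the mitosis genes were at 1608 to 1680.4 TPM at 24 h, 1584 to 1635 TPM at 72 h and 2808 to 2897 TPM in untreated cells.

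Peaks at the promoters were listed in nearly every library. A start counted as having a peak where at least 1 base within 500 bases of it was covered, which compares lists called separately per library and is a description with no test. ATAC peaks, which mark open chromatin, were at the starts of 38 of the 39 genes in each 24 h library, of 37, 33 and 38 in the 72 h libraries and of 38, 38 and 39 in the untreated libraries. Over all 10084 tested genes with a listed start the share per library was 78.8% to 95.1%. The lowest count came from 72 h replicate 2, which also had the shortest list (38495 peaks, against 150884 in the longest, untreated replicate 1). H3K4me3 peaks were at the starts of 39 of 39 genes in all 3 THC and all 3 untreated libraries, against 93.9% to 94.5% of all genes. With only ATAC peaks of a -log10 q of at least 5, the counts were 35, 29 and 37 at 24 h. They were 24, 14 and 35 at 72 h and 38, 35 and 38 in untreated cells. The shares over all genes were then 72.01%, 64.32% and 85.67% at 24 h and 55.36%, 27.12% and 81% at 72 h. In untreated cells they were 85.11%, 76.39% and 89.97%. These filtered lists held 8148 to 39665 peaks.

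Without the q filter, no gene of the list lost or gained a start peak in all 3 libraries. With it, PRIM1, POLE2 and RFC1 had an ATAC peak in every untreated and in no 72 h library. The share over all genes was not counted for that, so it cannot be called particular to these genes. The filtered lists held 16506, 8148 and 29052 peaks at 72 h and 32268, 24179 and 39665 peaks in untreated cells. The counts that follow are of unfiltered peaks. For ATAC, 0 of the 39 had a peak in 3 of 3 untreated and 0 of 3 THC libraries at 24 h (0.139% of all genes) or at 72 h (0.288%), and 0 had the reverse at 24 h (0% of all genes) or at 72 h (0.00992%). For H3K4me3 0 of the 39 did either, where 0% of all genes lost and 0.0397% gained a peak with THC. A peak was in all 6 libraries for 38 genes at 24 h (89.2% of all genes), for 32 at 72 h (77.8%) and for 39 in H3K4me3 (93.4%). The starts of PCNA, CDC6, FEN1 and POLD2 had an ATAC peak in all 9 libraries. That of UHRF1 lacked one in 72 h replicate 2, and the start of CDT1, which carries the H3K4me3 mark in all 6 libraries, had one in untreated replicate 3 alone. That depended on the window, since within 1000 bases of its start CDT1 had an ATAC peak in every library but 72 h replicate 2.

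**Figure D5:**
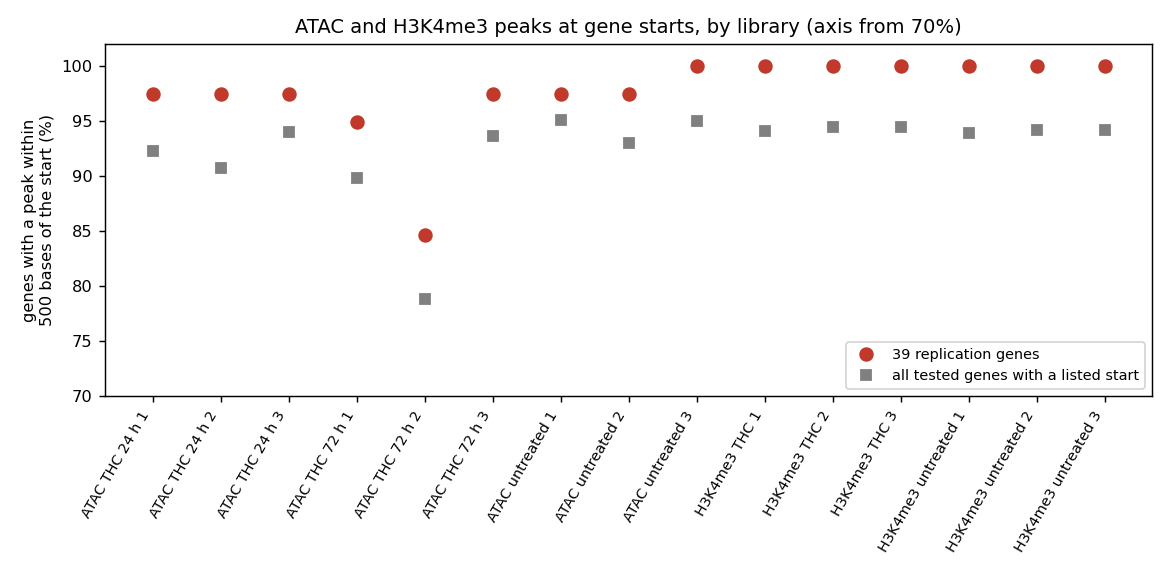
The percentage of genes with a peak within 500 bases of a listed start is shown per library for the 39 replication genes (circles) and for all 10084 tested genes (squares), on an axis that begins at 70%. The 39 genes lie above all genes in each of the 15 libraries, and 72 h ATAC replicate 2 is low for both. Where a peak had to cover 50% of that window, they lay below all genes in 72 h replicates 1 and 2 and untreated replicates 2 and 3 of ATAC.

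The width of the peaks was read as the bases covered within 2000 bases of a start, using the start with most where a gene had several. The median over the 39 genes was 521 to 780.0 bases in 24 h ATAC libraries, 428 to 691 bases in 72 h libraries and 520 to 758 bases in untreated libraries. Over all 10084 genes it was 545 to 811, 406 to 766 and 609 to 825 bases, above that of the 39 genes in every ATAC library but 72 h replicate 2. For ATAC at 24 h 2 genes were lower without overlap (5.24% of all genes were), PRIM1 at 649, 555 and 729 bases against 808, 762 and 810.0 bases in untreated cells, and CHAF1B at 407, 342 and 483 bases against 559, 524 and 545 bases. At 72 h 3 were (7.61% of all genes), namely PRIM1, RFC1 and RFC5. None was higher at either time, where 0.367% and 1.68% of all genes were. For H3K4me3 GINS1 was lower, at 3043, 2686 and 3067 bases with THC and 3110.0, 3095 and 3118 bases in untreated cells (2.66% of all genes were lower), and MCM6 was higher, at 2782, 2761 and 2766 bases with THC and 2207, 2536 and 2544 bases in untreated cells (8.13% of all genes were higher). The ATAC counts and the count of lower H3K4me3 width were near the share over all genes, and that of higher H3K4me3 width was under it. PCNA, with the largest fall in RNA at 24 h, had 837, 806 and 887 bases of ATAC peak at 24 h, 766, 778 and 1342 bases at 72 h and 873, 856 and 880.0 bases in untreated cells, so the groups overlapped. Start peaks were also ranked by fold enrichment within each ATAC list. The median percentile over the list was 83.5, 82.8 and 83.4 at 24 h and 78.8, 75.6 and 82.3 at 72 h. In untreated cells it was higher, at 93.25, 87.8 and 89.4. Such ranks depend on the other peaks of lists of unequal length. They were not taken for other genes, so no change particular to the list can be read from them.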

How the data were processed

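The RNA table holds TPM computed and deposited by the authors. Per the submitters' processing notes the build was GRCh38 and the tools included Salmon, Trim Galore, Bowtie2, MACS3 and MACS2 2.2.7.1, with no roles given, and per the labels' protocols the RNA libraries were made with a stranded total RNA kit. The control for H3K4me3 peaks, the use of strand and duplicate removal are not stated in the labels. Peaks were deposited per library. The fold enrichment (a ratio) and the score of each peak are the authors' own. The score was not used, and fold enrichment served only to rank peaks within a library. The -log10 p column was not used, and the deposited -log10 q column served only as a filter in 1 alternative.

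The 45 genes, the role groups and the other gene lists were chosen with earlier results of these data known. A symbol was found for 59918 of 60179 identifiers. Tests used limma 3.58.1 in R 4.3.3 on log2(TPM + 1), with 1 fit for the 3 groups and an eBayes trend, for genes with a mean of at least 1 TPM, and adjusted p was taken over all 13753. TPM keeps no depth, so no interval from counts is given. Ratios were tested by exact permutation over libraries. Starts and promoters are those of RefSeq on GRCh38.p14, and the peak lists are on GRCh38. Values in every library are given for the 3 genes of each role group with the largest change, for those not called against untreated cells and for PCNA, MCM2, CDC6, CDT1, GMNN, RRM2 and UHRF1. For the other lists up to 4 called genes with the largest changes are named, and E2F1, RRM2B and CDC7 always, and 1 gene that this rule names is not reported here. TOPBP1, POLD4, E2F4, E2F5 and E2F6 were named after their values were seen. RefSeq places 8 of the 45 genes over another gene with a mean of at least 1 TPM, and 10 have named pseudogenes in the table, none above 0.0113 TPM on average. Alternatives were other pseudocounts, filters, scalings and fits, and leaving out each library. The IgG sample was not analysed here.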

Additional observations from a re-analysis of the deposited data

Results flagged for a closer look

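Effects of THC at 72 h and at 24 h share the untreated libraries, so they were compared by the fit of 72 h against 24 h itself (limma, adjusted p under 0.05), which called 34 of the 45 genes as different. Of these 32 were higher and 2 lower at 72 h, where 54.9% of all tested genes were called higher and 17.8% lower, so a call in either direction was common over all genes too. POLD2 (-0.76) and ORC1 (-0.27) were lower at 72 h than at 24 h. The largest differences upward were PCNA (1.60), FEN1 (1.21), UHRF1 (1.19) and CHAF1A (0.88). GINS3 (0.70), RPA2 (0.70), RFC4 (0.68), GINS1 (0.67), POLD3 (0.65), ORC6 (0.62), CDC6 (0.61), TK1 (0.60), TYMS (0.55), GINS2 (0.52), MCM3 (0.52), POLD1 (0.51) and MCM7 (0.50) came next. LIG1 (0.49), MCM2 (0.49), GMNN (0.47), MCM4 (0.46), CDC45 (0.42), POLA2 (0.38), MCM6 (0.37), RFC5 (0.36), PRIM1 (0.35), CHAF1B (0.35), RPA3 (0.34), MCM10 (0.28), DNMT1 (0.24), RRM2 (0.23) and PRIM2 (0.17) were smaller. After centring, the calls of POLD1, MCM4, POLA2, MCM6, RFC5, PRIM1, CHAF1B, RPA3, MCM10, DNMT1 and RRM2 were lost. PRIM2 was then called lower, at -0.14 (limma adjusted p = 0.0233). The median of all tested genes moved by 0.26 in the same comparison, and the part of that shift in these values was not tested beyond the centring given above.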

How the results depend on the processing

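The count of lower genes against untreated cells stayed at 44 or 43 at 24 h and between 40 and 43 at 72 h under all pseudocounts, filters, scalings, fits and left-out libraries tried. Centring made 1 gene higher at 24 h, CDT1, as did leaving out THC 24 h replicate 2, with 0 to 1 over the left-out libraries. For 72 h against 24 h, centring gave 20 higher and 11 lower, and leaving out libraries gave 29 to 32 higher and 2 lower throughout. Centring also turned the sign of RFC1 (-0.23), RFC2 (-0.24), RFC3 (-0.25), MCM10 (-0.0292), POLE2 (-0.20), POLE (-0.28), DNMT1 (-0.0689), RPA1 (-0.22), PRIM2 (-0.14), GINS4 (-0.30) and RRM2 (-0.0786) in that comparison and made RRM1 (-0.32) a lower call, as it subtracts the shift of the median gene. With the replicate number as a block the counts were 44, 43, and 32 higher with 2 lower. Same-numbered libraries did not deviate together (correlations from -0.20 to 0.25), so the numbers were not read as pairs. Where a peak had to cover 50% of the window, the number of the 39 genes with an ATAC peak at the start was 19, 19 and 32 at 24 h (mean 23.33), 23, 9 and 30 at 72 h (mean 20.67) and 29, 20 and 29 in untreated cells, and the share over all genes was 30.57% to 74.63%. On the plus strand alone E2F-type letters were in 17.65% and TTTGAA in 0% of promoters. Depth is unknown for TPM, and peak lists of unequal length limit the reading of a missing peak.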
